A study of Homo sapiens with 18 samples.

Results

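The data described here are the difference between 2 human bladder cancer cell lines, RT112 and J82, in their transcript response to palbociclib. For each gene the response of J82 (palbociclib minus PBS control) was subtracted from the response of RT112 (palbociclib minus PBS control), so that a negative value means a lower response in RT112. The 4 groups were J82 with PBS, J82 with palbociclib at its IC50, RT112 with PBS and RT112 with palbociclib at its IC50, and each group held 3 arrays. These are 12 of the 18 arrays of the series, whose 6 arrays of another bladder line were not used here. All 4 groups are bladder lines grown in serum-containing medium, and the 3 arrays of a group came from pools of cells of different dishes at 70 to 80% confluence. One line per side means that line and genetic background are the same variable. The IC50 concentration and the exposure time are not given in the labels, so a difference between lines and a difference in dose cannot be told apart.

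Palbociclib inhibits CDK4 and CDK6, the kinases that pair with D-type cyclins and phosphorylate the retinoblastoma protein RB. Unphosphorylated RB holds E2F transcription factors at the promoters of genes for S phase entry, and related pocket proteins form the DREAM complex, which silences genes of mitosis through CHR promoter elements. In cells with working RB the drug is known for arrest in G1 with loss of these transcripts.

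Values are the deposited log2 intensities of whole-transcript arrays, 1 row per gene for 22465 genes. They reach 19.93, above what log2 of a 16-bit scan allows, so a difference on this log2 scale is not a fold change of signal. Differences are given with the standard error (SE) of a limma fit with n = 3 arrays per group, and "called" means a Benjamini-Hochberg adjusted p under 0.05 over all genes. That SE pools the spread of both lines, while the median SD of a gene was 0.112 in J82 controls, 0.163 in treated J82, 0.0962 in RT112 controls and 0.210 in treated RT112. Levels were read against the median of all genes in each group, called the mark below (5.36 in J82 controls, 5.41 in treated J82, 5.38 in RT112 controls and 5.42 in treated RT112). Background probes had array medians of 3.14 to 3.58 but single values up to 8.23, so a level near or below the mark may hold little or no specific signal. Of the arrays, RT112 palbociclib replicate 1 stood apart, with a gene median of 5.61 against 5.33 and 5.31 in the other two of its group. In bulk RNA of a line, fewer cells in a state and less RNA per cell cannot be told apart. Markers of leukocytes, endothelium and smooth muscle gave 0 called line differences among 14, 11 and 8 measured genes in this limma fit. For that difference 0 of them had an unadjusted p under 0.05. Of those genes 12, 10 and 7 lay below the mark in J82 controls and 12, 10 and 6 in RT112 controls. The leukocyte marker LCP1 had a called rise within J82 in the same fit (0.57, adjusted p = 0.0295). Of 41 epithelial and urothelial genes, 16 lay below the mark in J82 controls and 7 in RT112 controls.

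The response differed between the lines for 1027 of the 22465 genes (4.57%). Of these, 615 (2.74% of all genes) had a lower and 412 (1.83%) a higher response in RT112. A log2 difference of at least 1 was held as well by 697 genes (3.1%). Before adjustment 3282 genes (14.6%) had a p under 0.05. Without RT112 palbociclib replicate 1 the counts were 797 lower and 720 higher, and 952 of the 1027 genes were called again. The median difference over all genes was -0.01.

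Each called gene was put into a class by whether the response of each line was itself called. In the class RT112 alone were 501 genes (2.23% of all genes), of which 336 fell and 165 rose in RT112. The class J82 alone held 394 genes (1.75%), of which 201 fell and 193 rose in J82. Opposite signs, with a called response in both lines, were seen for 45 genes (0.2%), of which 22 rose in J82 and fell in RT112 and 23 fell in J82 and rose in RT112. The same sign with a different size was seen for 43 genes (0.191%), of which 32 fell more in RT112, 3 fell more in J82, 6 rose more in J82 and 2 rose more in RT112. For the remaining 44 genes (0.196%) neither line's own response was called. A response that is not called is not shown to be absent. Control and palbociclib arrays without overlap were common, at 5377 of the 22465 genes in J82 and 5114 in RT112. A lack of overlap named below is thus a description and not a call. In the class RT112 alone the J82 estimate was under 0.3 in size for 337 of 501 genes, and in the class J82 alone the RT112 estimate was under 0.3 for 305 of 394.

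**Figure D1:**
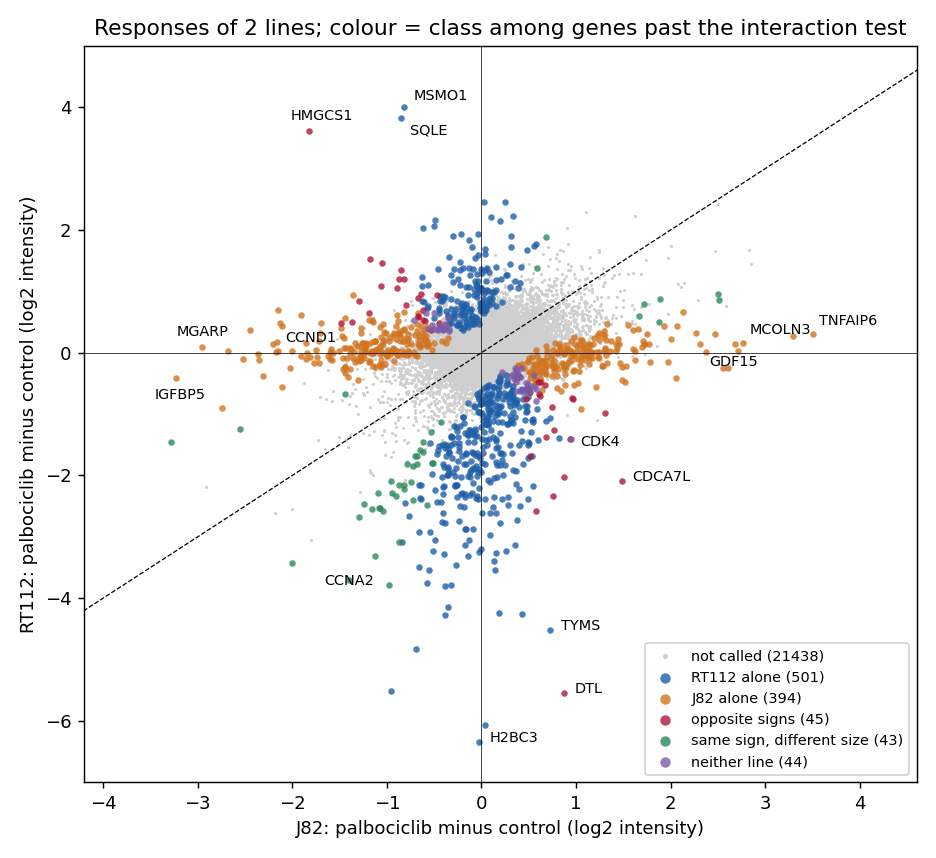
Response of each gene in J82 (horizontal axis) and RT112 (vertical axis), as palbociclib minus control in log2 intensity, with n = 3 arrays per group; each point is a gene, colours are the classes, and the dashed line marks equal responses. The genes of the class RT112 alone extend down to H2BC3 at -6.35 and DTL, which has opposite signs, lies at 0.87 in J82 and -5.55 in RT112.

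Among the lists examined, the highest share of called line differences was that of DNA replication: 48 of 53 measured genes of G1/S transition and DNA replication had a lower response in RT112 and 0 a higher one, with a median difference of -2.08. The median response of this list was 0.15 in J82 and -2.03 in RT112. In J82 5 of its members rose and 0 fell, against 5.4% of all genes that rose and 2.78% that fell in that line. In RT112 47 fell and 0 rose, against 3.53% of all genes that fell and 4.95% that rose. Of the 48, 43 belonged to the class RT112 alone, 4 had opposite signs and 1, the single-strand binding subunit gene RPA2, belonged to J82 alone. The starting level was similar in the lines, with list medians of 8.58 in J82 controls and 8.68 in RT112 controls, and no member lay below the mark in either control group. After palbociclib 5 members lay below it in RT112 and 0 in J82.

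DTL, the substrate receptor of a ubiquitin ligase that removes CDT1 in S phase, had the largest difference of all genes called, -6.42 ± 0.22 (SE, adjusted p = 2.07e-09). In J82 it read 11.67, 11.71 and 11.60 in controls and 12.42, 12.43 and 12.75 with palbociclib. In RT112 it read 11.35, 11.16 and 11.49 in controls and 5.66, 5.86 and 5.84 with palbociclib. The groups did not overlap in either line, and in treated RT112 the transcript ended close to the mark. CHAF1B, a subunit of the chromatin assembly factor CAF-1, read 8.21, 8.12 and 7.91 in J82 controls, 8.78, 8.68 and 9.07 in treated J82, 10.04, 10.10 and 10.39 in RT112 controls and 7.70, 7.93 and 7.89 in treated RT112. Its difference was -3.10 ± 0.22 (adjusted p = 2.62e-06), from a rise of 0.76 in J82 and -2.34 in RT112. RFC3, a subunit of the clamp loader of replication, had a rise of 0.88 in J82 against -2.03 in RT112. Its rise in J82 was no longer called without J82 control replicate 3 or without J82 palbociclib replicate 3.

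The chromatin genes CDCA7L and CDCA7 shared this pattern outside the replication list. CDCA7L read 8.08, 8.21 and 8.29 in J82 controls and 9.31, 9.80 and 9.90 in treated J82. The RT112 values were 7.96, 7.80 and 8.06 in controls and 5.97, 5.94 and 5.66 with palbociclib. Both lines thus started at a like level and ended apart, with a difference of -3.57 ± 0.23 (adjusted p = 1.21e-06). The difference for CDCA7 was -3.15 ± 0.23, but its rise in J82 (0.57, adjusted p = 0.0454) was close to the threshold and its class held in 3 of the 12 fits without 1 array. MND1, a gene of meiosis, and the chaperone gene DNAJC1 completed the 8 leading genes of this direction beside CDK4, with differences of -2.19 and -2.29 and opposite signs in 9 and 10 of the 12 fits.

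Among genes called in RT112 alone, TYMS, the enzyme that makes thymidylate, read 12.76, 12.56 and 11.87 in J82 controls and 13.01, 12.98 and 13.39 in treated J82. In RT112 it read 11.01, 10.79 and 11.13 in controls and 6.15, 6.59 and 6.61 with palbociclib. The 2 J82 groups stood apart without overlap, yet that rise of 0.73 had an adjusted p of 0.0718, and without J82 control replicate 1 it was called (0.91, adjusted p = 0.0423), which would move TYMS to opposite signs. PRIM1, the catalytic primase subunit, differed by -4.68 ± 0.34 (adjusted p = 3.36e-06), CDC6, which loads the MCM helicase, by -4.44 ± 0.27 (adjusted p = 9.13e-07), and PCNA, the sliding clamp, by -3.68 ± 0.25 (adjusted p = 1.67e-06). CDC6 read 11.78, 11.74 and 11.39 in J82 controls, 11.51, 11.84 and 12.13 in treated J82, 12.08, 11.80 and 11.84 in RT112 controls and 7.46, 7.73 and 7.79 in treated RT112. Its J82 groups overlapped and its RT112 groups did not. The MCM helicase subunit genes MCM2 to MCM7 had differences from -2.90 (MCM6) to -2.21 (MCM2), each of them in the class RT112 alone.

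Promoter sequence was read for a few genes, because the letters that E2F factors bind are known from such promoters. The genes printed are a selection and not the leading genes in order of their difference. Each of them holds a match, so they do not show how common the letters are. Sequences are from RefSeq on GRCh38.p14, 120 bases before the annotated start, 5′ to 3′ on the strand of the gene. Capitals mark matches to the E2F letters (TTTCCCGC, TTTCGCGC, TTTGCCGC or TTTGGCGC on either strand) and, in mitotic genes, to the CHR letters (TTTGAA or TTCGAA on either strand). The first 3 genes are replication and pocket protein genes and the last 3 are mitotic genes.
DTL, chr1:212035628-212035747, plus strand: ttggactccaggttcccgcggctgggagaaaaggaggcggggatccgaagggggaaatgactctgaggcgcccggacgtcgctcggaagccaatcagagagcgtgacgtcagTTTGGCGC
RFC3, chr13:33818029-33818148, plus strand: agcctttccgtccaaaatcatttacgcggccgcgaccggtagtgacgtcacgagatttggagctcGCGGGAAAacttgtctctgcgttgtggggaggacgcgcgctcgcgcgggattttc
RBL1, chr20:37095998-37096117, minus strand: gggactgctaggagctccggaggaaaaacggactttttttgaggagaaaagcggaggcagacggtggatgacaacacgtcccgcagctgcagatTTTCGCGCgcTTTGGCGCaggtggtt
NCAPG, chr4:17810859-17810978, plus strand: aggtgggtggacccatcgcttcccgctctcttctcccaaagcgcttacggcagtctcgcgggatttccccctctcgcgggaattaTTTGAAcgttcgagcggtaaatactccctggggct
KIF15, chr3:44761674-44761793, plus strand: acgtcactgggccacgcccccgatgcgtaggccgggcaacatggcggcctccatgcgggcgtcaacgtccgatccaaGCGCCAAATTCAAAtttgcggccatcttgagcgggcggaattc
MKI67, chr10:128126424-128126543, minus strand: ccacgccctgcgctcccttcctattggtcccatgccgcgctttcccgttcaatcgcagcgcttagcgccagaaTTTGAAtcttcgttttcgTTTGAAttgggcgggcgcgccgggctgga

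Over windows from 250 bases before to 50 after the start, E2F letters were present in 4.27% of the 14673 promoters matched to a gene. They were present in 18.3% of 279 genes that fell in RT112 alone, in 28.6% of 21 genes that rose in J82 and fell in RT112, and in 11.5% of 26 genes that fell in both lines but more in RT112. In genes of the class J82 alone they were present in 0 of 117 that fell and in 3.29% of 152 that rose. CHR letters, found in 13.7% of all promoters, were present in 30.1% of the genes that fell in RT112 alone and in 53.8% of those that fell in both lines but more in RT112. In the replication list E2F letters were found in 47.7% and CHR letters in 6.82% of 44 promoters. The list of mitosis genes had the reverse order, with 10.4% and 70.1% of 67 promoters. These are counts of letters and not of sites bound by a factor, and many members of the first groups belong to the lists named here. The E2F shares of the groups of 21 and 26 genes rest on only 6 and 3 promoters, so they are imprecise.

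Genes of G2/M and mitosis fell in RT112 almost throughout and in J82 in part. In RT112 78 of 79 measured genes fell, with a median of -2.13, and in J82 34 fell and 0 rose, with a median of -0.57. The difference was called for 51 genes, all lower in RT112, of which 33 were called in RT112 alone and 18 in both lines with the same sign. The list thus differed from the replication list in its composition, since 0 of the replication genes fell in both lines. No member lay below the mark in a control group. CCNA2, cyclin A2, read 12.75, 12.40 and 12.26 in J82 controls and 11.43, 11.55 and 11.51 in treated J82. RT112 read 14.19, 14.10 and 14.18 in controls and 10.11, 10.22 and 10.78 with palbociclib. Groups stood apart in both lines, and RT112 went from the higher to the lower level (difference -2.82 ± 0.28, adjusted p = 3.08e-05).

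MKI67, the proliferation marker Ki-67, read 12.15, 11.71 and 11.94 in J82 controls and 10.16, 10.46 and 10.97 in treated J82. In RT112 it read 11.77, 11.63 and 12.17 in controls and 7.53, 8.57 and 8.36 with palbociclib. The lines started alike and both fell, by -1.40 ± 0.27 in J82 and by -3.71 ± 0.27 in RT112. TOP2A, topoisomerase II alpha, NUSAP1, a spindle protein, and KIF15, a mitotic kinesin, had differences of -2.19, -2.22 and -1.92, and KIF15 kept its class, a fall in both lines, in 7 of the 12 fits without 1 array. HJURP and CENPU, both needed at the centromere, differed by -3.49 and -3.48 with J82 estimates of 0.26 and 0.36 that were not called. The list also held genes with falls of like estimated size in both lines. PLK1, a kinase of mitotic entry, fell by 2.00 in J82 and by 2.54 in RT112, and KIF20A, a kinesin of cytokinesis, by 2.18 and 2.62. Their differences of -0.54 and -0.44 were not called, which does not show equal responses.

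**Figure D2:**
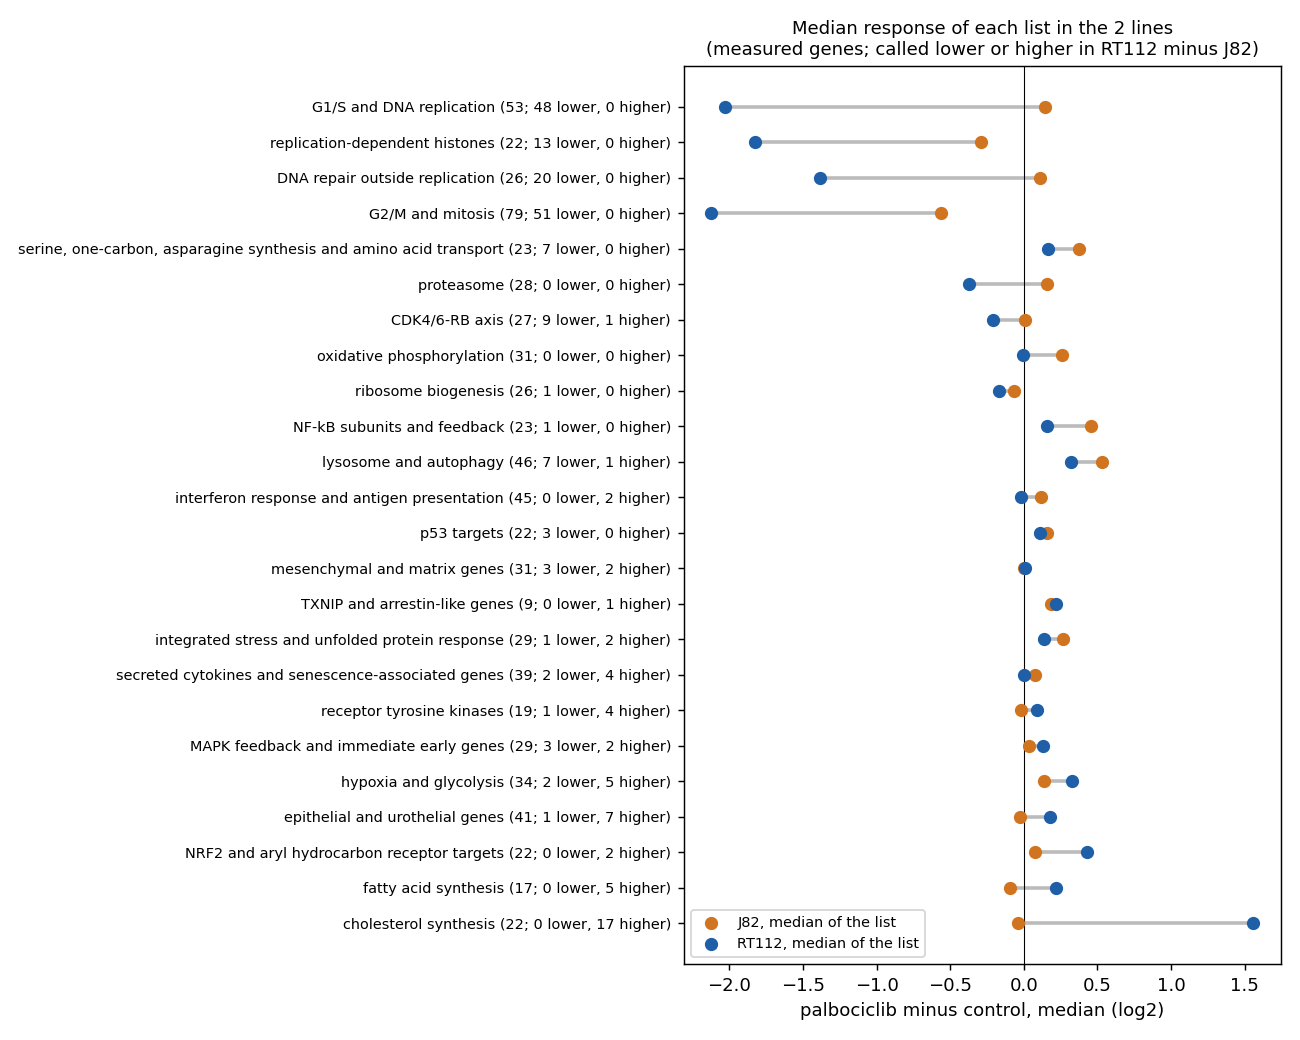
Median response of the measured members of 24 gene lists in J82 (orange) and RT112 (blue), as palbociclib minus control in log2 intensity; the counts beside each name give measured genes and those with a called lower or higher response in RT112. The 4 cell cycle lists stand at the top with RT112 medians between -2.13 and -1.39, and cholesterol synthesis stands at the bottom with 1.56.

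Replication-dependent histones, made in S phase to pack new DNA, were lower in their RT112 response for 13 of 22 measured genes and higher for 0, with a median difference of -1.68. Of the 13, 12 were of the class RT112 alone. H2BC3 read 5.12, 5.02 and 4.81 in J82 controls and 5.24, 4.62 and 5.01 in treated J82, all below the mark. RT112 arrays read 11.79, 11.22 and 10.52 in controls and 4.69, 4.59 and 5.21 with palbociclib. H2BC14 showed the same arrangement at a lower level, between 3.55 and 3.68 on all 6 J82 arrays. The differences of these 2 genes were -6.32 ± 0.38 and -6.10 ± 0.32, and J82 lay below the mark with and without palbociclib. J82 was well above the mark for H2BC9, at 13.11, 12.18 and 12.15 in J82 controls and 11.91, 10.78 and 11.88 in treated J82, against 13.50, 13.12 and 12.65 and then 8.02, 7.16 and 7.53 in RT112. Its J82 groups were apart, but the J82 response of -0.96 was not called (adjusted p = 0.127). H2BC10, H2AC21 and H4C3 differed by -4.13, -3.90 and -3.79. Histone genes have near-identical copies, so the assignment of signal to 1 copy is uncertain.

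DNA repair genes outside replication followed the replication list. Of 26 measured, 20 had a lower and 0 a higher response in RT112, with a median difference of -1.51 and medians of 0.11 in J82 and -1.39 in RT112. BRIP1, a helicase of crosslink repair, had a difference of -3.23, FANCI of the Fanconi pathway one of -3.07 and XRCC2, a recombination protein, one of -2.97. BRIP1 read 9.52, 9.63 and 9.77 in J82 controls, 9.16, 9.88 and 9.81 in treated J82, 10.05, 10.25 and 10.10 in RT112 controls and 6.62, 7.09 and 6.92 in treated RT112. The J82 groups overlapped, while the RT112 groups did not.

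The targets of the drug and their partners were not uniform. Of 27 measured genes of the CDK4/6-RB axis, 9 had a lower response in RT112 and 1 a higher one, with a median of -0.45. CDK4 read 14.31, 13.88 and 13.77 in J82 controls and 15.18, 14.54 and 15.04 in treated J82. In RT112 it read 13.67, 13.49 and 13.28 in controls and 12.18, 11.71 and 12.33 with palbociclib. The signs were opposite (0.93 in J82, -1.41 in RT112, difference -2.34 ± 0.33, adjusted p = 0.000629). The rise in J82 was not called in the fits without J82 control replicate 2 or 3, or without J82 palbociclib replicate 1 or 3, where its adjusted p was 0.0719 to 0.0944. CDK6, the other target, had a difference of 0.02 ± 0.27 that was not called. E2F2, an activator E2F, also had opposite signs at a low level, with 5.75, 5.63 and 5.68 and then 6.22, 6.04 and 6.21 in J82, and 6.27, 6.07 and 6.12 and then 5.58, 5.22 and 5.41 in RT112. Its rise in J82 was lost without the same 4 arrays as that of CDK4 (adjusted p = 0.0553 to 0.0786).

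RBL1, the pocket protein p107, had no called response in J82, at 9.76, 9.99 and 10.03 in controls and 9.96, 9.94 and 10.35 with palbociclib. The RT112 values were 9.55, 9.71 and 9.96 in controls and 6.10, 6.73 and 6.62 with palbociclib, for a difference of -3.41 ± 0.27 (adjusted p = 5.99e-06). The repressor genes E2F8 and E2F7 differed by -3.16 and -2.79, cyclin E2 (CCNE2) by -2.51, CDK2, the partner of cyclins E and A, by -2.19 and E2F1 by -1.54, all in the class RT112 alone. RB1 itself read 10.33, 10.28 and 10.42 in J82 controls, 10.54, 10.51 and 10.84 in treated J82, 8.87, 8.65 and 8.83 in RT112 controls and 7.93, 8.01 and 8.20 in treated RT112. It fell by 0.74 in RT112, and its J82 groups did not overlap although the J82 estimate of 0.29 was not called. RBL2, the pocket protein p130 of the DREAM complex, rose in RT112 by 0.95, with a J82 estimate of 0.48 and a difference of 0.47 that was not called.

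The 1 member with a higher response in RT112 was CCND1, cyclin D1. It read 11.66, 11.08 and 10.88 in J82 controls and 9.72, 9.14 and 9.25 in treated J82, against 10.77, 10.63 and 10.39 and then 10.49, 10.56 and 10.71 in RT112. J82 fell without overlap of its groups, by 1.84 ± 0.21, whereas the RT112 groups overlapped at -0.01 ± 0.21 (difference 1.83 ± 0.30, adjusted p = 0.00256). The CDK inhibitor genes CDKN1A, CDKN1B, CDKN2A and CDKN2B had differences between -0.87 and 0.18, with adjusted p from 0.0905 to 0.936. CDKN2B rose in J82 by 1.01 and had an estimate of 0.13 in RT112, where all 6 arrays read 5.07 to 5.48, around the mark.

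**Figure D3:**
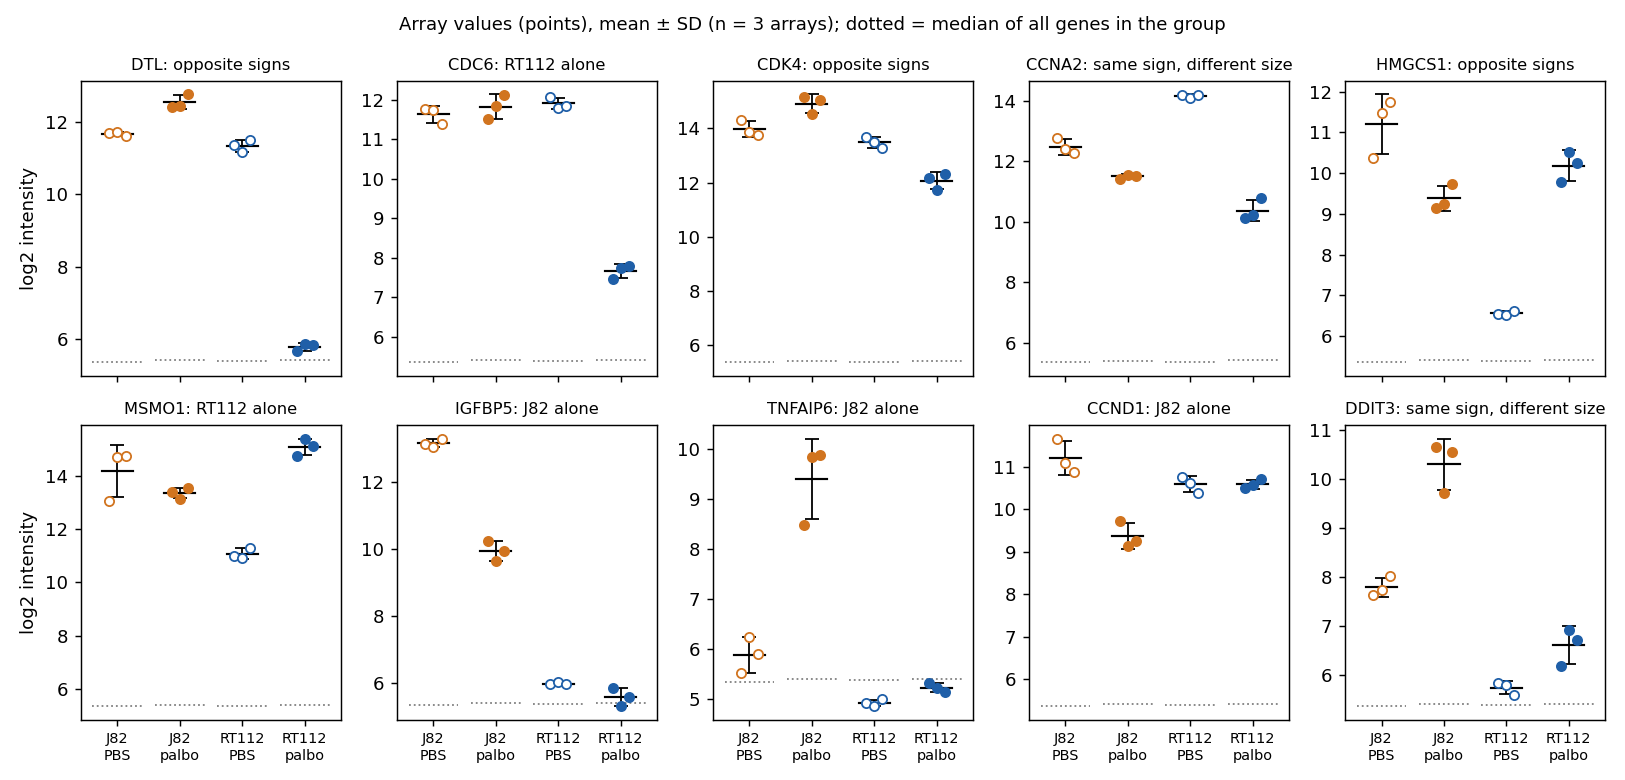
Log2 intensity of 10 genes on each array (points; open for PBS, filled for palbociclib; orange J82, blue RT112) with mean and SD bars, n = 3 arrays per group, and the mark of each group as a dotted line. DTL and CDK4 moved in opposite directions in the 2 lines, HMGCS1 did so the other way round, and TNFAIP6 in RT112 lay below the mark with and without palbociclib.

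Cholesterol synthesis was the reverse of the cell cycle lists. Sterol enzymes are induced together by the transcription factor SREBF2 when sterol in the endoplasmic reticulum is low. Of 22 measured genes 17 had a higher and 0 a lower response in RT112, with a median difference of 1.96 and list medians of -0.04 in J82 and 1.56 in RT112. In RT112 20 rose and 0 fell, and in J82 4 fell and 0 rose. The classes were 13 genes of RT112 alone and 4 with opposite signs. Starting levels differed, with list medians of 9.15 in J82 controls and 7.76 in RT112 controls. After palbociclib the medians were 9.09 and 9.34, so RT112 came up to a level near that of J82.

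HMGCS1, the synthase that feeds HMG-CoA reductase, read 10.38, 11.49 and 11.75 in J82 controls and 9.15, 9.25 and 9.74 in treated J82. In RT112 it read 6.54, 6.53 and 6.62 in controls and 9.77, 10.52 and 10.24 with palbociclib. The groups were apart in both lines and crossed in order (difference 5.45 ± 0.42, adjusted p = 5.83e-06). NSDHL and IDI1, enzymes of late and early steps of the pathway, had opposite signs too, with differences of 2.51 ± 0.25 and 2.21 ± 0.25. NSDHL read 11.70, 12.18 and 12.18 in J82 controls, 10.89, 10.86 and 11.15 in treated J82, 9.66, 9.69 and 9.73 in RT112 controls and 10.93, 11.20 and 11.32 in treated RT112. INSIG1, which retains the SREBP escort protein in the endoplasmic reticulum, differed by 2.70 ± 0.46, but its fall in J82 (-1.18, adjusted p = 0.0411) was not called in 10 of the 12 fits without 1 array.

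MSMO1 and SQLE, enzymes of sterol demethylation and squalene oxidation, had differences of 4.81 ± 0.51 and 4.67 ± 0.47 and were called in RT112 alone. MSMO1 read 13.03, 14.71 and 14.74 in J82 controls and 13.38, 13.13 and 13.53 in treated J82, against 11.01, 10.92 and 11.30 and then 14.75, 15.37 and 15.11 in RT112. J82 control replicate 1 was low for MSMO1 and also the lowest control for HMGCS1, INSIG1, SQLE and CYP51A1. Without that array MSMO1 fell in J82 by 1.38 (adjusted p = 0.00293), which puts it among the genes with opposite signs, and the J82 list median was -0.16, with 17 genes still higher in RT112. DHCR7, ERG28, CYP51A1 and MVD, all of this pathway, had differences of 2.22, 2.43, 2.19 and 1.97. HSD17B7, a sterol ketone reductase, differed by 2.65, and without J82 control replicate 1 its fall in J82 was called (-0.84, adjusted p = 0.0323).

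Fatty acid synthesis had fewer line differences, 5 higher and 0 lower of 17 measured genes, with a median of 0.66. FASN, fatty acid synthase, read 10.11, 10.49 and 10.52 in J82 controls and 9.38, 8.65 and 9.22 in treated J82, against 10.68, 10.72 and 10.64 and then 11.03, 11.59 and 11.93 in RT112. The groups were apart in both lines, in opposite directions, although the rise in RT112 (0.84, adjusted p = 0.042) was not called in 7 of the 12 fits without 1 array. ACLY, which makes cytosolic acetyl-CoA, ACSS2, which makes it from acetate, and LPIN1, a phosphatidate phosphatase, differed by 1.87, 1.58 and 1.26 and were called in RT112 alone. The other leading genes that fell in J82 and rose in RT112 were the calcium pump gene ATP2B4 (difference 2.15), TMEM87B (2.07) and the protocadherin gene PCDH7 (1.98). Their differences were called in all 12 fits without 1 array, but opposite signs held in 6, 3 and 7 of them, and in none of the 3 genes after arrays were shifted to 1 median.

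**Figure D4:**
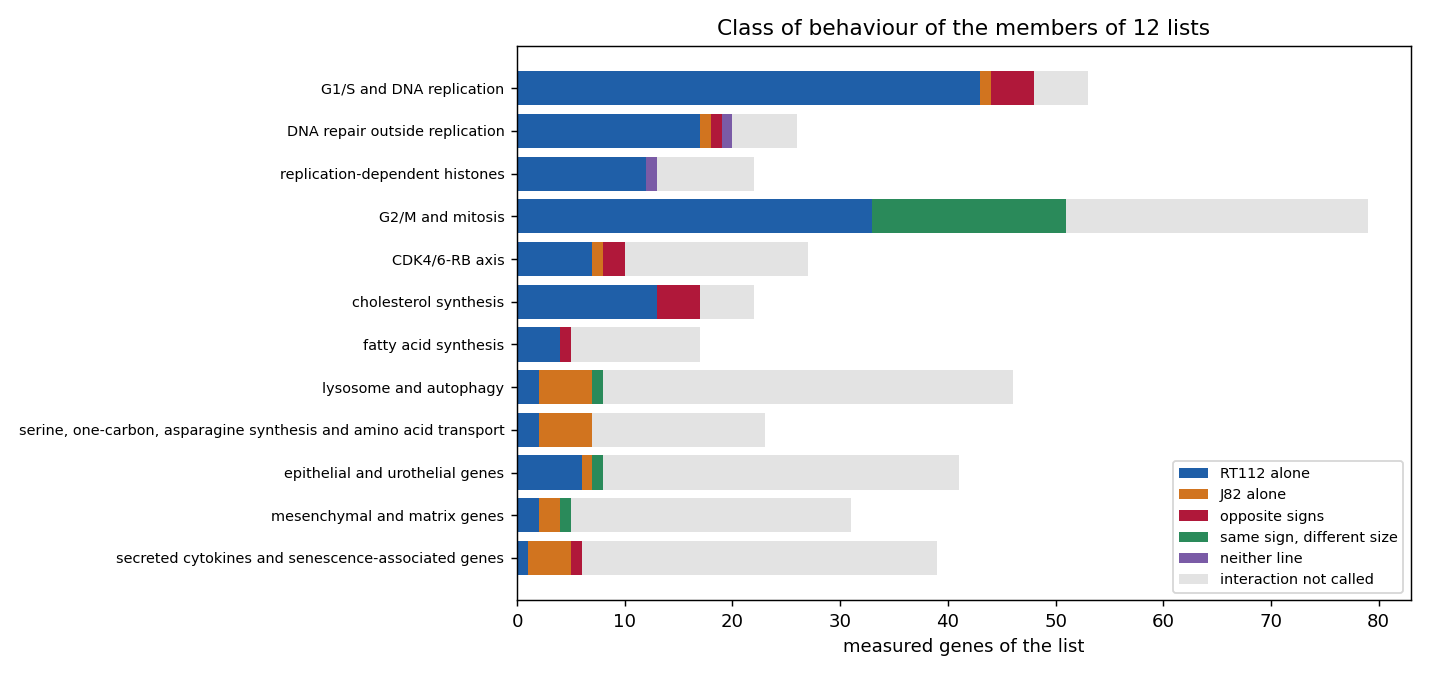
Number of measured genes of 12 lists in each class of behaviour (colours) and with no called difference (grey). RT112 alone makes up 43 of 53 replication genes, the same sign in both lines appears for 18 of 79 mitosis genes, and opposite signs appear for 4 of 22 cholesterol genes.

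The further genes that rose in RT112 alone came from outside lipid synthesis. ARRDC4, an arrestin-like relative of TXNIP, read 8.07, 8.39 and 8.25 in J82 controls and 7.63, 7.72 and 7.88 in treated J82, against 6.88, 6.96 and 7.18 and then 8.82, 9.13 and 9.56 in RT112. The J82 groups were apart in the other direction, but -0.49 was not called (adjusted p = 0.121). CYP1A1, an enzyme induced through the aryl hydrocarbon receptor, lay between 4.49 and 4.94 on the 6 J82 arrays and read 4.57, 4.45 and 4.41 in RT112 controls and 6.43, 6.87 and 6.74 with palbociclib. J82 and untreated RT112 were below the mark, so the difference of 2.10 rests on 1 group above it. TSPAN31, a tetraspanin gene, differed by 2.15 ± 0.25 and overlaps CDK4 by 2493 bases on chromosome 12 in the RefSeq annotation, where CDK4 moved the other way. RT112 also had higher responses of KRT13 (1.51), KRT5 (1.46) and KRT19 (1.82), keratins of the urothelium. KRT13 read 5.71, 5.53 and 5.56 in J82 controls and 15.50, 15.52 and 15.51 in RT112 controls, so the lines started far apart, with J82 near the mark. KRT5 and KRT19 were each called in 2 of the 12 fits without 1 array.

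The level in the other line was compared between the classes as a description, with no test. Of the 394, 115 (29.2%) lay below the mark in both RT112 groups, against 71 of 501 genes (14.2%) of the class RT112 alone that lay below it in both J82 groups. Over all genes these shares were 48.6% for either line. The 201 genes that fell in J82 alone had a median control level of 8.51 in J82 and 6.04 in RT112. The 336 that fell in RT112 alone had 8.14 in J82 and 8.63 in RT112. Among genes that fell, 61 of 201 (30.3%) in J82 alone had both RT112 groups below the mark and 28 of 336 (8.3%) in RT112 alone had both J82 groups below it. Among genes that rose the shares were close, 54 of 193 (28.0%) and 43 of 165 (26.1%).

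**Figure D5:**
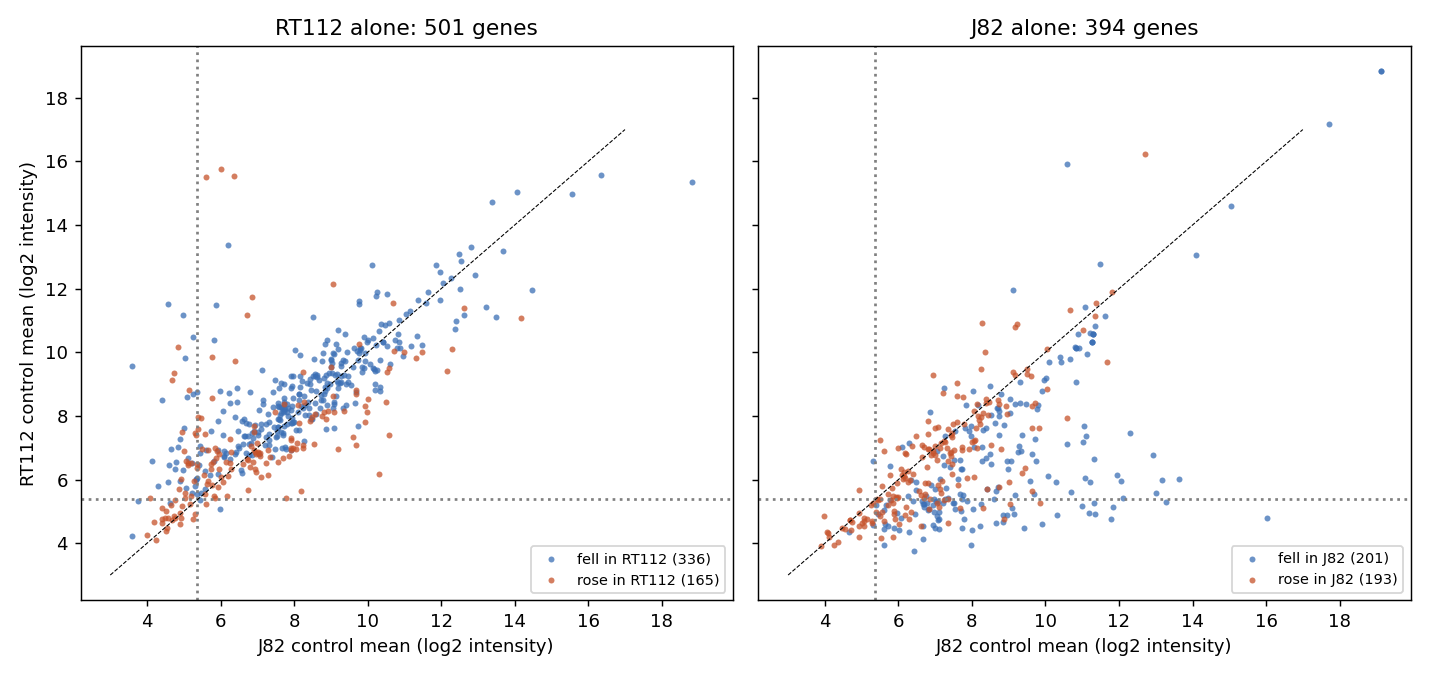
Control level of each gene in J82 (horizontal axis) and RT112 (vertical axis), in log2 intensity means of 3 arrays, for the 501 genes of RT112 alone (left) and the 394 of J82 alone (right); blue points fell and red points rose, dotted lines are the marks and the dashed line marks equal levels. Genes that fell in J82 alone spread along the bottom of the right panel, where 69 of 201 start below the RT112 mark.

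IGFBP5, a secreted binding protein of insulin-like growth factors, read 13.16, 13.07 and 13.31 in J82 controls and 10.25, 9.64 and 9.95 in treated J82. RT112 read 5.98, 6.02 and 5.96 in controls and 5.87, 5.31 and 5.57 with palbociclib, close to the mark, where the groups were apart but -0.41 was not called. The difference was 2.83 ± 0.25 (adjusted p = 1.37e-05). MGARP, a mitochondrial protein, LRP2, an endocytic receptor, TLE4, a corepressor, GFRA1, the GDNF receptor, and SLC12A3, a salt transporter, had differences of 3.04, 2.71, 2.35, 2.24 and 2.42. For these 5 genes the RT112 control mean lay between 4.66 (LRP2) and 5.94 (MGARP), near or below the mark. GRPR, a bombesin-type receptor, read 6.64, 6.06 and 6.55 in J82 controls and 3.85, 4.05 and 4.26 in treated J82, and 3.67 to 3.79 on all RT112 arrays. SEMG1 and DIO2 also had RT112 levels below the mark, and the second probe set of DIO2 gave a difference of -0.14 in place of 2.19.

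EPHA2, an ephrin receptor, was measured at a like level in both lines. It read 10.99, 10.71 and 10.97 in J82 controls and 8.21, 8.26 and 8.84 in treated J82, against 10.52, 10.50 and 10.72 and then 10.48, 11.09 and 11.29 in RT112. J82 fell without overlap and the RT112 groups overlapped, with a difference of 2.83 ± 0.31 (adjusted p = 9.41e-05). THBS1, a matrix glycoprotein, fell by 2.75 in J82 to 7.78, 7.83 and 7.88, from 11.42, 10.06 and 10.24, and stood at 15.91, 15.86 and slightly above that (mean 15.92) in RT112 controls and 14.63, 15.30 and 15.13 in treated RT112. J82 control replicate 1, at 11.42, was the highest of its group and enlarged the estimated fall of THBS1 in J82. The RT112 groups were apart as well, at -0.90, but not called (adjusted p = 0.0779). The difference of 1.84 was not called without RT112 palbociclib replicate 2. SLC2A1, the glucose transporter GLUT1, and DSC3, a desmosome cadherin, fell in J82 by 1.15 and 1.19, with RT112 estimates of 0.50 and 0.54 that were not called. Without RT112 palbociclib replicate 1 both rises were called (0.71, adjusted p = 0.0215, and 0.76, adjusted p = 0.00813). That would move both genes to opposite signs.

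Genes that rose in J82 alone included TNFAIP6, IL6 and GDF15, which code for secreted proteins, although the list of 39 secreted and senescence-associated genes held 2 with a lower response in RT112, IL6 and SERPINE2, and 4 with a higher one. TNFAIP6, a hyaluronan-binding protein, read 5.53, 6.24 and 5.91 in J82 controls and 8.47, 9.85 and 9.88 in treated J82. In RT112 it lay between 4.87 and 5.33 on all 6 arrays, below the mark, and the difference was -3.20 ± 0.41 (adjusted p = 0.000336). IL6, a cytokine, read 7.93, 9.22 and 9.86 in J82 controls and 10.95, 11.70 and 11.48 in treated J82, against 5.83 to 6.02 in RT112. GDF15, a stress cytokine, read 4.21, 4.07 and 4.08 in J82 controls and 7.14, 6.73 and 6.53 in treated J82, and 4.11 to 4.54 in RT112, so only 1 of the 4 groups was above the mark. HSD17B14, a steroid dehydrogenase, BDKRB2, a bradykinin receptor, KLHDC7B and CA8 differed by -3.03, -2.80, -2.69 and -2.17, and the highest RT112 control array among them read 5.06, for BDKRB2. The antisense transcript MYO16-AS1 and the histone gene H2AC25 differed by -2.86 and -2.47.

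Of 46 measured lysosome and autophagy genes 7 had a lower and 1 a higher response in RT112, with a median of -0.13. In J82 21 rose and 0 fell, and in RT112 10 rose and 2 fell, so that most of the list was not called as different. MCOLN3, a lysosomal calcium channel, read 6.63, 7.27 and 7.23 in J82 controls and 9.36, 9.76 and 10.29 in treated J82, and 5.18 to 5.51 in RT112. ASAH1, acid ceramidase, was above the mark in both lines, with 9.16, 9.76 and 9.95 and then 11.97, 12.05 and 12.27 in J82 and 7.46, 7.69 and 7.67 and then 7.83, 7.92 and 7.97 in RT112. Its groups were apart in RT112 too, with an estimate of 0.30 that was not called, and the difference was -2.17 ± 0.27. HEXA, a hexosaminidase subunit, differed by -1.60. RRAGD, a GTPase that signals from the lysosome to mTORC1, rose in both lines, by 2.50 ± 0.18 in J82 and by 0.95 ± 0.18 in RT112. The letters TCACGTGA, known from lysosomal promoters, were found in 15.6% of 32 promoters of this list. They were found in 5.92% of 152 genes that rose in J82 alone and in 1.4% of all promoters. The first 2 shares rest on only 5 and 9 promoters, so they are imprecise.

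Serine, one-carbon and amino acid genes gave 7 lower and 0 higher of 23, with a median of -0.54. The cytosolic folate enzyme genes MTHFD1 (-1.80) and SHMT1 (-1.16) fell in RT112 alone, whereas SHMT2, the mitochondrial serine hydroxymethyltransferase (-1.51), and SLC7A5, a large amino acid transporter (-1.62), rose in J82 alone. SLC7A5 read 13.04, 12.48 and 12.62 in J82 controls and 14.72, 13.94 and 14.78 in treated J82, against 16.08 to 16.56 on all RT112 arrays, where it was already higher. Of the integrated stress genes, DDIT3, the transcription factor CHOP, was called as higher in both lines. It read 7.62, 7.73 and 8.01 and then 10.65, 9.70 and 10.54 in J82, and 5.84, 5.79 and 5.59 and then 6.18, 6.92 and 6.71 in RT112 (difference -1.64 ± 0.34, adjusted p = 0.0112). Its rise in RT112 was called in 6 of the 12 fits without 1 array, and it was not called after arrays were shifted to 1 median or quantile normalized, which leaves J82 alone. The reverse held for DDIT4, an mTORC1 inhibitor, with rises of 0.68 ± 0.15 in J82 and 1.89 ± 0.15 in RT112. That list gave 1 lower and 2 higher of 29, with a median of -0.02.

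KRT18, a keratin of simple epithelia, was among the few genes that fell more in J82. It read 14.83, 14.23 and 14.08 in J82 controls, 12.03, 11.47 and 11.98 in treated J82, 12.49, 12.74 and 12.37 in RT112 controls and 11.42, 11.03 and 11.39 in treated RT112. The groups were apart in both lines, with a difference of 1.31 ± 0.32 (adjusted p = 0.033) that was called in 5 of the 12 fits without 1 array. NRG1, an ERBB ligand, had the same order with 0.77 ± 0.20 and was called in 2 of those fits, as was ZNF528 (0.80), which rose in both lines. ADHFE1, CPEB4 and ZNF350 rose more in J82, with differences between -1.38 (ADHFE1) and -0.93 (ZNF350). ADHFE1 was called in all 12 of those fits but kept its class in 4, while CPEB4 was called in 4 and ZNF350 in 1, and neither of the latter was called after arrays were shifted to 1 median.

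Of genes with a called difference and no called response in either line, the leading ones were H2BC5 (-2.35 ± 0.59), RBBP4, a histone chaperone that binds RB (-1.17 ± 0.29), and IDH3A, an enzyme of the citric acid cycle (-1.13 ± 0.28). SLC46A1, a folate transporter (1.25), EIF2AK4, the amino acid sensor GCN2 (1.24), and S100P (1.15) led the higher side. Few of these calls held in the 12 fits without 1 array: 5 for H2BC5, 4 for RBBP4, 4 for IDH3A, 3 for SLC46A1 and 5 for S100P, against 11 for EIF2AK4. RBBP4 read 11.67, 11.70 and 11.60 in J82 controls, 11.91, 12.33 and 12.47 in treated J82, 11.52, 11.43 and 11.59 in RT112 controls and 10.46, 11.18 and 11.14 in treated RT112. The groups were apart in both lines, in opposite directions, with estimates of 0.58 and -0.59. The RT112 estimate leaned on RT112 palbociclib replicate 1, the array that stood apart, at 10.46 against 11.18 and 11.14.

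The remaining lists are read against the 4.57% called among all genes. Proteasome genes gave 0 called line differences of 28 in limma, with an unadjusted p under 0.05 for 10. Of their estimates 28 of 28 were lower in RT112, with a median of -0.49 and list medians of 0.16 in J82 and -0.38 in RT112. Over all genes 11566 of 22465 estimates were lower. Oxidative phosphorylation gave 0 of 31, with an unadjusted p under 0.05 for 7 and 26 estimates lower. Control medians were 11.151 in J82 and 11.312 in RT112 for proteasome genes, and 9.22 and 8.908 for oxidative phosphorylation. All genes are thus not a baseline of like level. The upper quartile of genes was 7.096 on RT112 palbociclib replicate 1, against 7.198 and 7.22 in its group. It was 7.504 on J82 palbociclib replicate 3, against 7.256 and 7.257. Whether these array differences moved the estimates of both lists was not tested. Interferon and antigen presentation genes gave 0 lower and 2 higher of 45, which were RIGI, an RNA sensor, and IFIT1, an antiviral effector, both falling in J82, and the difference of IFIT1 was called in 4 of the 12 fits without 1 array. RIGI read 13.09, 13.77 and 14.04 in J82 controls and 12.72, 12.55 and 12.98 in treated J82, and 5.93 to 6.65 in RT112. Of 22 p53 targets 3 (13.6%) were lower, GDF15, DDB2 (-1.51) and PMAIP1 (-1.23), all rising in J82 alone. Of 19 receptor tyrosine kinases 5 (26.3%) were called, of which 1 was lower, DDR2 (-1.57), and 4 higher, EPHA2, EGFR (1.67), PDGFRB (0.94) and ERBB3 (0.60). EGFR read 9.71, 9.72 and 9.91 in J82 controls, 9.35, 8.76 and 9.54 in treated J82, 10.17, 10.30 and 10.28 in RT112 controls and 10.88, 11.60 and 11.60 in treated RT112. J82 moved down and RT112 up without overlap of groups, and the RT112 rise of 1.11 alone was called. PDGFRB and POSTN (1.91) were the 2 of 10 measured fibroblast markers with a called line difference, that of PDGFRB in 6 of the 12 fits without 1 array. Both fell in J82 and lay below the mark in RT112 controls, and of the 10 markers 5 lay below it in J82 controls and 8 in RT112 controls.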

How the data were processed

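RNA of 12 cell line samples was hybridised to Affymetrix whole-transcript arrays. The deposited values are log2 intensities per probe set made by the authors. The submitters' processing notes name RMA and Affymetrix Expression Console, without a version. No source used here gives the genome build. Of 70523 rows, 67528 are transcript clusters and 23781 of those carry 1 symbol in the platform annotation. For each of 22465 genes the row with the highest mean was kept.

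A model of 4 group means (limma 3.58.1, R 4.3.3, eBayes with trend, 8 residual degrees of freedom) gave each contrast, with Benjamini-Hochberg adjustment over all genes at 0.05. On simulated data over 22465 genes it recovered 59% of line differences of 1 and 93% of those of 2, with 11 false calls. The simulation gave each gene independent normal noise with the same spread on all arrays. In the real arrays the spread differed between groups and RT112 palbociclib replicate 1 stood apart, so recovery and false calls there may differ. The number of arrays limits the precision, and p-values measure the spread between pools of dishes of 1 line.

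Members, lists and tests were chosen with earlier results of these data known. Named genes are, by size of the called difference, the leading 10 per direction of each 1-line class, 8 of opposite signs, 5 of the same sign and 3 of neither line, the 4 leading genes of each of 28 lists, and the CDK4/6-RB axis. Small RNAs, loci without a name and Y-linked genes were not named, and 1 gene that the rule gave is not reported here. RPA2, MCM2 to MCM7, PLK1, KIF20A, ERBB3, SERPINE2 and UPK1B were chosen after their values were seen.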

Additional observations from a re-analysis of the deposited data

Results flagged for a closer look

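The responses of the 2 lines differed, by the test of the difference itself, for 615 genes that were lower and 412 that were higher in RT112. Opposite called responses were seen for 22 genes that rose in J82 and fell in RT112 and for 23 that fell in J82 and rose in RT112. Of these 45 genes, 9 stayed in that class in each of the 12 fits without 1 array. Their differences were -6.42 for DTL, -3.57 for CDCA7L, -3.10 for CHAF1B and -2.03 for PSMC3IP on the lower side, and 5.45 for HMGCS1, 2.51 for NSDHL, 2.21 for IDI1, 1.96 for NFAT5 and 1.61 for MAGED1 on the higher side. The groups of 3 arrays were too small to test single arrays as outliers.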

How the results depend on the processing

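The 1027 calls (615 lower, 412 higher) and their classes moved with several choices, and the cause was not tested. Array weights gave 1161 lower and 1223 higher genes, with 1385 in RT112 alone, 154 with opposite signs, 124 with the same sign and 138 in neither line. Their weight for RT112 palbociclib replicate 1 was 0.113. Quantile normalization gave 781 higher genes, 600 in J82 alone, 101 with opposite signs, 106 with the same sign and 81 in neither line. When all transcript cluster rows entered the adjustment, 381 genes were lower and 221 higher, with 321 in RT112 alone, 213 in J82 alone, 15 with opposite signs and 21 with the same sign. Where the size of the difference also had to reach 1, 256 were higher, 253 in J82 alone and 12 in neither line. Testing only genes above the mark in at least 1 group gave 69 with opposite signs and 75 with the same sign. After arrays were shifted to 1 median 23 genes had opposite signs, of which 19 were among the 45. Without 1 array at a time, lower genes ranged from 423 to 797, higher ones from 265 to 720, RT112 alone from 347 to 821, J82 alone from 259 to 478, opposite signs from 19 to 78, the same sign from 23 to 63 and neither line from 32 to 77. The highest of each of these ranges came without RT112 palbociclib replicate 1, and the lowest of the lower, higher, RT112 alone and J82 alone counts without RT112 control replicate 1. The count with opposite signs was under 30 without J82 control replicate 2 or 3, any RT112 control or RT112 palbociclib replicate 2 or 3, and that with the same sign was under 29 without any 1 control array. Without J82 palbociclib replicate 3 there were 475 lower and 500 higher genes. In all 12 of these fits 278 genes stayed in RT112 alone, 191 in J82 alone, 9 with opposite signs, 17 with the same sign and 0 in neither line. The replicate block gave 638 lower and 457 higher genes. Same-numbered arrays correlated in their deviations at 0.075 to 0.188 in J82, against -0.146 to -0.006 for differently numbered ones. In RT112 these ranges were -0.193 to 0.173 and -0.303 to 0.317. The main fit did not take the numbers as pairs, and whether the J82 arrays were paired was not settled. A weight per line, added after seeing the data, gave 584 and 392. Of 130 called genes that the naming rule gave, 107 kept their call under every planned setting, and 0 changed sign under any setting. The replication list had 43 to 53 lower genes over the other settings and cholesterol synthesis 17 or 18 higher ones. Low intensity limits genes near the mark, where a missing response cannot be seen.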

Other observations

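Of 34 measured hypoxia and glycolysis genes, 2 had a lower and 5 a higher response in RT112. Over all genes 2.74% had a lower and 1.83% a higher response. EPAS1, the transcription factor HIF-2 alpha, read 7.88, 7.31 and 7.57 in J82 controls, 9.95, 9.01 and 9.80 in treated J82, 9.19, 9.09 and 8.85 in RT112 controls and 9.15, 9.21 and 9.45 in treated RT112. Its difference was -1.77 ± 0.32, that of the vasodilator peptide gene ADM was -1.50, and both rose in J82 alone, while NDRG1, a hypoxia and stress gene, rose in RT112 alone (1.41). Epithelial and urothelial genes gave 1 lower, the uroplakin gene UPK1B (-1.20), and 7 higher of 41. Over the 12 fits without 1 array the higher count ran from 3 to 9, with at most 4 without any array other than J82 palbociclib replicate 3 and RT112 palbociclib replicate 1.

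Secreted and senescence-associated genes gave 2 lower and 4 higher of 39 (15.4% called). IGFBP3, which binds insulin-like growth factors, fell in J82 by 0.80 and rose in RT112 by 0.77, though that class held in 4 of the 12 fits without 1 array. The NF-kB list gave 1 lower and 0 higher of 23, and the MAPK feedback list 3 and 2 of 29. The mesenchymal and matrix list gave 3 and 2 of 31, and ribosome biogenesis 1 and 0 of 26. Their shares called were 4.35%, 17.2%, 16.1% and 3.85%, in the same order, against 4.57% of all genes. The list of TXNIP and arrestin-like genes gave 0 lower and 1 higher of 9 (11.1%). The NRF2 and aryl hydrocarbon receptor list gave 0 and 2 of 22 (9.09%). EGR1, an immediate early gene, lay between 4.64 and 4.86 on all J82 arrays, between 4.76 and 4.85 in RT112 controls and rose there to between 5.54 and 6.0.

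The 201 genes that fell in J82 alone held 15 miRNA genes, 10 pseudogenes, 7 transcribed pseudogenes, 3 snoRNA genes and 1 snRNA gene by RefSeq gene type. The 193 that rose in J82 alone held 0 of each of these kinds and 184 protein-coding genes. Among all 22465 genes these kinds numbered 1032, 78, 719, 227 and 22, in the same order, and protein-coding genes 16833. The counts were not tested against these totals. Over all transcript clusters in 1 fit, 464 of 43747 rows with several symbols or none (1.06%) were called, 179 lower and 285 higher in RT112, against 624 of 23781 rows with 1 symbol (2.62%). These rows were not named here.

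The letters TCACNCCAC, searched on both strands and known from sterol-regulated promoters, were found in 5.0% of 20 promoters of cholesterol genes and in 1.15% of all promoters. With 20 promoters, the first share rests on too few genes to be set against the second. The 120 bases before the start of HMGCS1, on GRCh38.p14 from RefSeq, are shown for comparison with the replication promoters. They held no match to these, the E2F or the CHR letters, which says only that those letters are not in this stretch.
HMGCS1, chr5:43313413-43313532, minus strand: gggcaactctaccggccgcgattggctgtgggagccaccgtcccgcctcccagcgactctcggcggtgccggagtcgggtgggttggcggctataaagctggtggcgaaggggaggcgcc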
